A study of Drosophila melanogaster with 4 samples.

Results

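The 10 genes described here encode proteins that license DNA for replication. They are the 6 subunits of the MCM helicase (Mcm2, Mcm3, dpa, Mcm5, Mcm6 and Mcm7), 3 subunits of the origin recognition complex (Orc1, Orc2 and Orc5) and the loading factor dup. They were chosen by name, for their function, out of 13945 protein-coding genes on the main chromosome arms of Drosophila melanogaster. For each gene the peaks of H3K4me3 that touched the 500 bp on either side of an annotated start site were collected. H3K4me3, histone H3 trimethylated on lysine 4, marks the start of active genes. It was profiled in whole ovaries by chromatin immunoprecipitation followed by sequencing, and peaks were called in each library separately.

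There were 4 libraries in 2 groups. In the 2 lid KD libraries the females were MTD-Gal4>shRNA lid: the MTD-Gal4 driver, which is active in germ cells, expressed a hairpin RNA against lid. In the 2 control libraries the females carried the same driver without a hairpin (MTD-Gal4>+). The tissue label gives females of 3 days and the extraction label gives virgins of 0 to 1 day, both for every library, and the methods of the study give yet another age. Each library pooled the ovaries of many females. The hairpin is driven in germ cells, while follicle cells of the ovary contribute chromatin too, so a change in the share of a cell type and a change in the mark per cell cannot be told apart. Lid (KDM5) removes methyl groups from H3K4me3, and the comparison asks where the mark differs once Lid is depleted.

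Licensing takes place before S phase. The origin recognition complex binds DNA, and Cdc6 and Dup, the fly Cdt1, then load the ring of MCM subunits, which later unwinds the origin. In the fly ovary these proteins serve the divisions of germ cells, the endocycles of nurse cells and follicle cells and the amplification of eggshell genes in follicle cells. They are also stored in the egg for the rapid divisions of the early embryo.

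The promoters of these genes were read for 2 motifs of factors known to act on replication genes. The E2F site was searched as TTTCCCGC, TTTCGCGC, TTTGCCGC or TTTGGCGC, and the DNA replication-related element (DRE) as TATCGATA, each on both strands from 250 bp before the main start site to 50 bp after it. These 2 sets of letters do not overlap in any window printed here. The sequences below are shown because the results come back to these promoters. They come from the RefSeq copy of the dm6 assembly, are written on the plus strand, on which all these genes lie, and carry the motif in capitals.
Mcm2, 3R:8264995-8265024, E2F: ttagcaaacatTTTCCCGCgcattttcgca
Mcm3, X:5323838-5323867, E2F: cacactacgctTTTCCCGCgaaaaaacttt
Mcm5, 3R:10788545-10788574, E2F: cggtaattttgGCGGCAAAatattcgcaca
Mcm6, X:6674389-6674418, E2F: gtcagaaaaagGCGCCAAAaccgagcaaag
Orc2, 3R:13964891-13964920, DRE: catgtcttagtTATCGATAattcccgccac
Orc5, 2L:13829742-13829854, DRE and E2F: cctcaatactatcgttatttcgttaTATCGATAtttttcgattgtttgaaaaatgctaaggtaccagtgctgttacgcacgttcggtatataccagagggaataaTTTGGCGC

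The E2F letters were present at 6 of the 10 genes. The first base of the match, counted from the start site, lay at 37 in Mcm2, -6 in Mcm3, 33 in Mcm5, 14 in Mcm6, 4 in Orc1 and 11 in Orc5. These letters occurred in 6.58% of all promoters of this length and in 7.78% of those with a peak in all 4 libraries. In a search at every annotated start site, made after the data had been seen, dpa and dup held a match as well, which gave 8 of 10 genes against 8.69% of all genes. Mcm7 and Orc2 held none in either window. The DRE was present at Orc2, at -201 and at 18, and at Orc5, at -70, while 9.23% of all promoters and 16.9% of those with a peak held it. TATAAA was present at 4 of 10 genes, against 32.1% of all promoters, and the initiator letters TCAGT at 3 of 10, against 36.6%, both read on the strand of the gene. A match is a description of the letters and not a bound site.

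The lists held 12832 and 13501 peaks in lid KD replicates 1 and 2, and 12087 and 25302 in control replicates 1 and 2. The background of the genome, which stands for depth here, lay between 48.4 and 60.1 fragments per base and was lowest in control replicate 2, which had the longest list. The 2 lid KD libraries differed by no more than counting noise: over 8865 regions called in all 4 libraries, the robust SD of their differences was 0.994 counting errors, against 2.26 for the control pair. They were therefore counted as 1 sample in every test. With 1 lid KD sample and 2 controls the exact permutation test cannot give a p below 0.333, so no difference reported here can reach p = 0.05, and each is set beside the gap between the controls instead. At the promoter of lid the fold enrichment was 6.43 and 6.28 in lid KD and 5.96 and 6.84 in the controls, which says nothing about the transcript. The promoter of dhd had no peak in either lid KD library, and fold enrichments of 3.08 and 3.95 in the controls. The study had reported the loss of this peak from these same libraries, so its absence from the lists is no independent check. Of 5 germ cell genes, nos, osk and otu had a promoter peak in all 4 libraries, aub in the lid KD libraries alone and vas in none. All 5 follicle cell genes had one in all 4 libraries. Of 5 genes of other tissues, elav had a peak in all 4 libraries, ninaE in 1, and Mhc, Mst87F and can in none. In rank, 3 of the 5 follicle cell genes were lower in both lid KD libraries than in both controls. Of all genes ranked in all 4 libraries, 40.9% were lower in this way and 17.0% higher. The rank of slbo was 25.1 and 27.0 in lid KD and 31.4 and 34.9 in the controls. That of yellow-g was 29.4 and 22.5 in lid KD and 31.4 and 45.1 in the controls. That of Vm26Ab was 41.6 and 45.0 in lid KD and 48.7 and 59.9 in the controls. The groups overlapped at tj and Fas3. Of the germ cell genes nos was lower in lid KD, otu higher and osk overlapping, and elav was lower. The part of cell composition in the ranks below was not tested.

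All 10 licensing genes carried a promoter peak in each of the 4 libraries, as did 48.3% of all protein-coding genes. None lost or gained its peak with the knockdown. Of all genes, 0.179% had a peak in the lid KD libraries alone (both of them), and 0.810% had one in the controls alone (both of them). Mcm3 is of interest here because its start site lies 11684 bp from that of dhd. Its own peak was called in every library, while that of dhd was absent from both lid KD lists.

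The peaks had a common layout. At each gene a peak lay on the transcribed side and reached into the coding sequence. At most genes it began close to a start site, and at Mcm5 in control replicate 2 it began 366 bp after it. For 7 of the genes, 70% of them, another gene starts within 1000 bp upstream of an annotated start site and runs the other way. The neighbours were RPA1 for Mcm2 at 519 bp, didum for dpa at 2 bp, Art1 for Mcm5 at 298 bp, CG3198 for Mcm6 at 414 bp, Kots for Orc2 at 711 bp, Arpc1 for Orc5 at 96 bp and SRPK for dup at 110 bp. At dup the distance is from the inner of its 2 start sites, and SRPK starts between them. A divergent neighbour was found by this rule for 36.2% of all genes and for 58.3% of genes with a peak in all 4 libraries. At dpa, Mcm5, Mcm6 and Orc5 the neighbour had a peak of its own within the window in all libraries, which was the strongest of the window in all libraries at Mcm6 and Orc5 and in 3 of 4 at Mcm5. The peak with its summit at or downstream of a start site of the gene, called the gene-side peak below, was therefore measured too. That measure was chosen after the data had been seen. All 10 genes had a gene-side peak in all 4 libraries, as did 42.0% of all genes. None had it in 1 group alone, against 0.516% of all genes in both lid KD libraries alone and 0.703% in both controls alone.

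**Figure D1:**
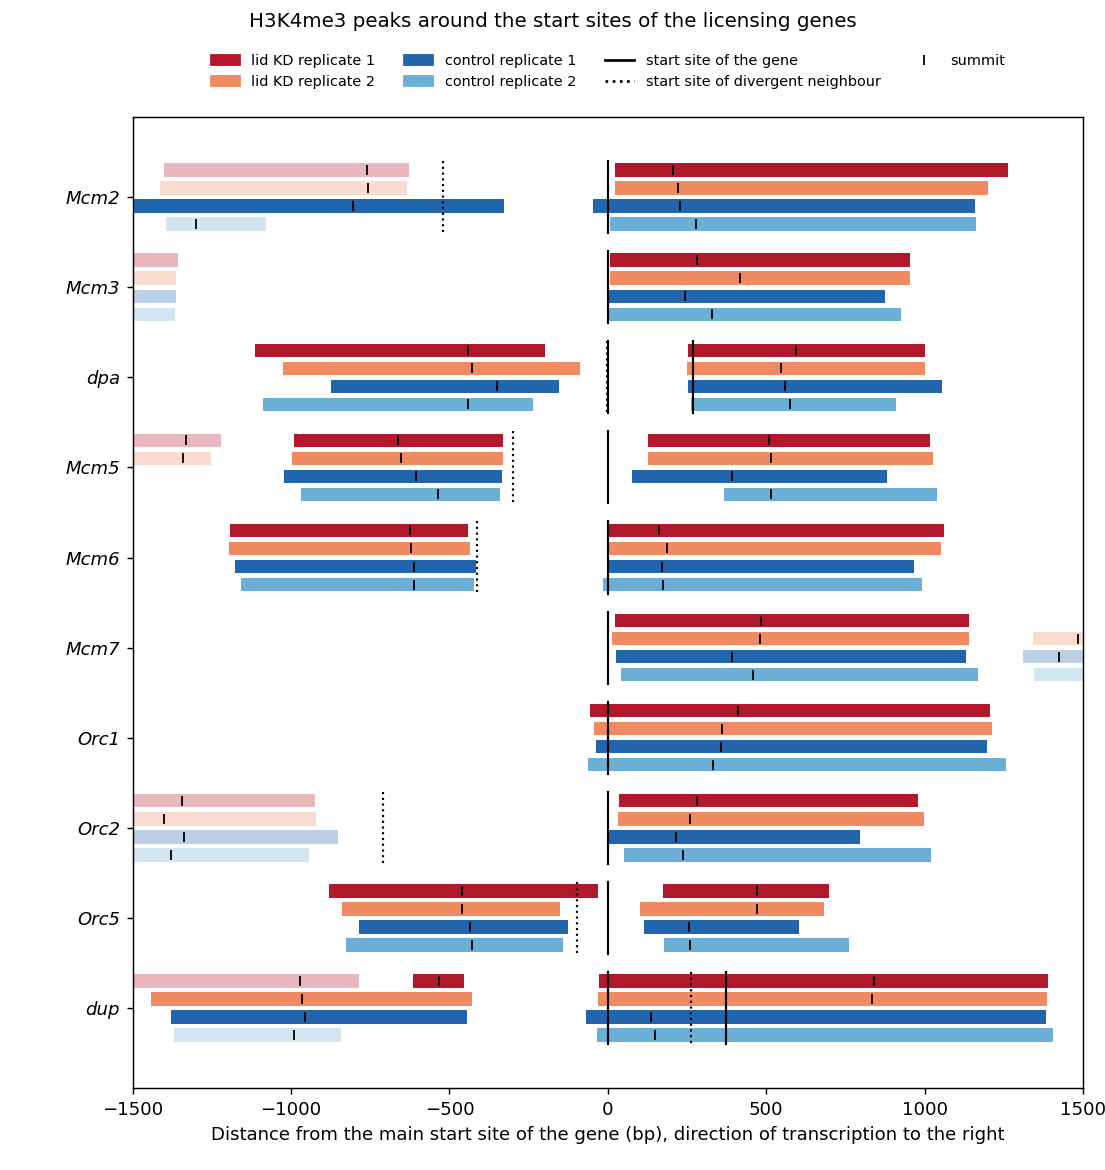
H3K4me3 peaks around the main start site of each licensing gene (x axis, bp), with lid KD replicates 1 and 2 above control replicates 1 and 2. Bars are called peaks (pale where they do not touch the 500 bp window), ticks are summits, solid lines are start sites of the gene and dotted lines those of divergent neighbours; every gene has a bar on its transcribed side in all 4 libraries, and at dup the summit lies further into the gene in lid KD.

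Strength was described by 3 values. The fold enrichment is the pileup of fragments at the summit over the local background of the peak caller. The percentile rank places a peak by its fold enrichment among the 12087 strongest peaks of its own library, with 100 for the strongest and 0 for a peak outside that list. Summit coverage is the pileup over the background of the whole genome in that library. By median, the licensing genes had a coverage near that of all genes but lower ranks. The median coverage of their strongest peaks was 26.4 and 25.8 times background in lid KD and 16.8 and 28.2 in the controls, while over all genes with a peak it was 24.1 and 23.1 in lid KD and 16.0 and 22.9 in the controls. Their median rank was 64.4 and 65.9 in lid KD and 71.5 and 72.8 in the controls, below the 77.5 and 77.6 in lid KD and the 78.4 and 78.9 in the controls over 6553 genes ranked in all 4 libraries. Mcm7, Orc1 and Orc2 ranked above the medians of all genes in every library, and dup in all but control replicate 1. With gene-side peaks the medians were 65.3 and 67.0 in lid KD and 68.2 and 74.6 in the controls over 9 licensing genes. Over 5621 genes they were 75.5 and 75.4 in lid KD and 76.0 and 76.1 in the controls. The median local background around the strongest peaks of the licensing genes was 5.10 and 5.58 times the genome background in lid KD. In the controls it was 3.54 and 5.35. Over all genes the medians were 3.39 and 3.31 in lid KD and 2.71 and 2.92 in the controls. At Mcm7 and Orc2 the local background was below these in every library.

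**Figure D2:**
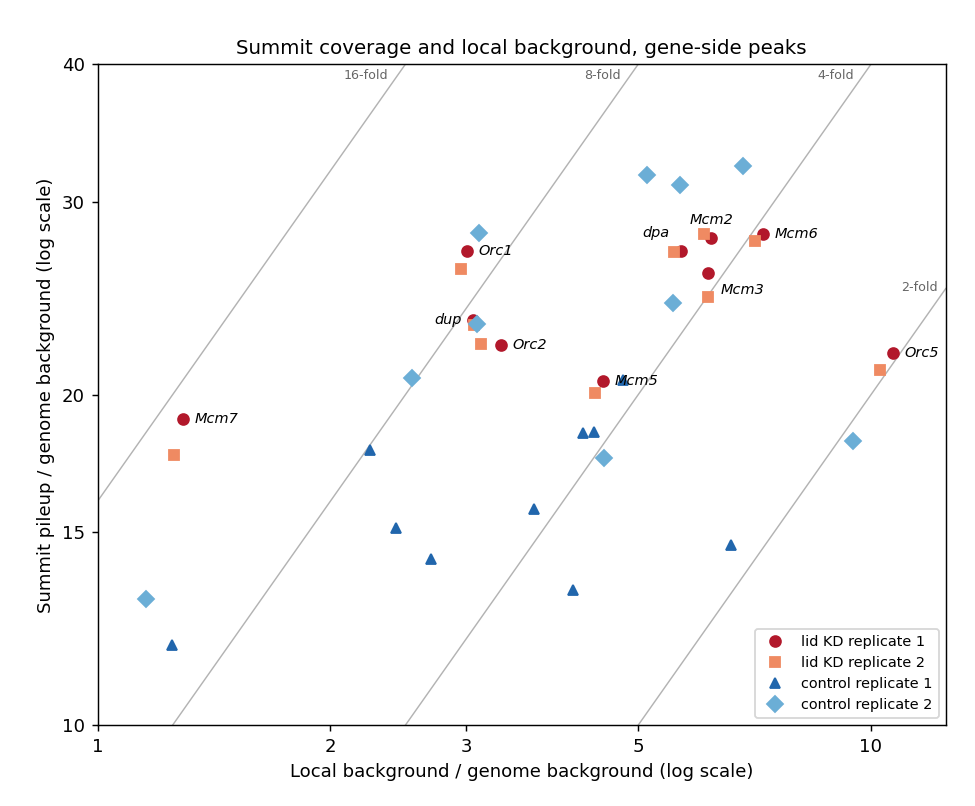
Summit coverage (y axis, pileup over genome background) against local background (x axis, over genome background) for the gene-side peaks, both on log scales, with grey lines of equal fold enrichment and gene names beside lid KD replicate 1. Mcm7 stands at the left with a local background near that of the genome and Orc5 at the right with a local background of 6.59 to 10.7 times it.

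Mcm7 and Orc5 mark the ends of this range. The fold enrichment of the gene-side peak of Mcm7 was 14.6 and 13.8 in lid KD and 9.37 and 11.1 in the controls. That of Orc5 was 2.04 and 2.05 in lid KD and 2.21 and 1.91 in the controls. The 2 genes had similar summit coverage: 19.0 and 17.6 times background in lid KD and 11.8 and 13.0 in the controls at Mcm7, and 21.8 and 21.1 in lid KD and 14.6 and 18.2 in the controls at Orc5. They differed in the local background, which was 1.29 and 1.26 in lid KD and 1.25 and 1.16 in the controls at Mcm7, and 10.7 and 10.3 in lid KD and 6.59 and 9.49 in the controls at Orc5. Since the fold divides by the local background, these genes lay at opposite ends by fold and close together by coverage.

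Mcm7 (FBgn0020633, 3L:8891596-8894310 of dm6, plus strand, 5 exons) encodes a helicase subunit and had the highest fold enrichment of the set in every library, though the lowest summit coverage. Its rank was 98.1 and 98.0 in lid KD and 96.2 and 93.5 in the controls, so both lid KD libraries were above both controls, and 83.3% of genes had a lower difference in rank. The summit pileup was 1057 and 998 fragments in lid KD and 711 and 631 in the controls. Scaled to background, coverage was 1.47 times as high in lid KD, a difference of 0.56 on the log2 scale with a counting error of 0.05, while the controls differed by 0.14 (exact two-sided permutation test, p = 0.333, the smallest possible). The summit lay in coding sequence in all libraries and also within an exon of the antisense gene asRNA:CR45871, from which this assay cannot separate it. No divergent neighbour was found within 1000 bp, and the window held 1 peak in each library.

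Mcm6 (FBgn0025815, X:6674387-6677176, plus strand, 1 exon) showed the opposite order of ranks. Its gene-side peak ranked 56.9 and 57.8 in lid KD and 67.7 and 64.6 in the controls, a mean difference of -8.80 points with a gap of 3.16 between the controls (exact two-sided permutation test, p = 0.333). The fold enrichment of that peak was 3.86 and 3.89 in lid KD and 4.30 and 4.71 in the controls. Its coverage was 28.0 and 27.6 times background in lid KD and 20.6 and 32.3 in the controls, so the groups overlapped on that scale. The CG3198 side of the same promoter ranked 61.2 and 61.2 in lid KD and 72.0 and 71.0 in the controls. The distance between the groups there was 9.74 points, the largest of the 10 genes and just under the margin of 10 points used to call a difference in rank.

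Mcm5 (FBgn0017577, 3R:10788524-10791150, plus strand, 4 exons) depended on which peak was read. The gene-side peak ranked 63.5 and 64.3 in lid KD and 56.3 and 57.4 in the controls, with fold enrichments of 4.55 and 4.54 in lid KD and 3.21 and 3.87 in the controls. Both lid KD libraries were above both controls, by a mean of 7.06 points where the controls differed by 1.12 (exact two-sided permutation test, p = 0.333). This peak was also 891 and 902 bp wide in lid KD and 806 and 673 bp in the controls. The strongest peak of the window ranked 63.5 and 64.6 in lid KD and 59.8 and 65.2 in the controls, so the groups overlapped, and it was the peak over Art1 in all libraries except lid KD replicate 1.

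Mcm2 (FBgn0014861, 3R:8264970-8267924, plus strand, 2 exons) had a gene-side peak of rank 62.7 and 64.8 in lid KD and 66.8 and 74.6 in the controls. Both controls were above both lid KD libraries, but they differed from each other by 7.85 points, more than the mean difference of -6.96 points for lid KD minus control. In coverage the groups overlapped, with 27.8 and 28.0 times background in lid KD and 18.5 and 31.7 in the controls. In control replicate 1 the window also held a peak over RPA1, a subunit of the single-strand binding protein of replication, with a fold of 4.60 against 4.21 at the gene side. That peak reached to 329 bp before the Mcm2 start in control replicate 1. In lid KD replicates 1 and 2 it ended outside the window, at 629 and 633 bp before the start. In control replicate 2 no peak covered its summit. The nearest peak upstream there was 316 bp wide with a fold of 1.96, and ended 1079 bp before the start. The 2 controls thus differed from each other here.

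Mcm3 (FBgn0284442, X:5323855-5326738, plus strand, 3 exons) and dpa (FBgn0015929, 2R:7496702-7500145, minus strand, 7 exons) encode further helicase subunits, dpa being the fly Mcm4. The rank of Mcm3 was 60.1 and 58.8 in lid KD and 67.6 and 61.6 in the controls, lower in both lid KD libraries with a mean difference of -5.12 points, smaller than the 5.97 points between the controls. Its coverage was 25.8 and 24.5 times background in lid KD and 15.8 and 24.3 in the controls. The rank of dpa was 65.3 and 67.0 in lid KD and 68.2 and 70.0 in the controls, lower in both lid KD libraries with a mean difference of -2.95 points. Its coverage overlapped, at 27.0 and 27.0 times background in lid KD and 18.5 and 31.0 in the controls. At dpa the gene-side peak began at the inner of its 2 start sites, and a second, weaker peak lay over didum, with ranks of 49.5 and 49.8 in lid KD and 57.3 and 37.1 in the controls.

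Of the origin recognition complex, Orc1 (FBgn0286788, 2R:7522437-7525716, minus strand, 3 exons), the largest subunit of the complex, had a rank of 89.3 and 89.5 in lid KD and 92.3 and 87.6 in the controls. The groups overlapped, and the fold enrichment was 8.96 and 8.80 in lid KD and 7.86 and 8.96 in the controls. Orc1 had no divergent neighbour, and its peak was 1263 and 1257 bp wide in lid KD and 1237 and 1321 bp in the controls. Orc2 (FBgn0015270, 3R:13964885-13967075, plus strand, 4 exons) ranked 79.6 and 82.4 in lid KD and 84.3 and 84.3 in the controls. Both lid KD libraries were lower, with a mean difference of -3.35 points, but the lid KD libraries differed from each other by 2.81 points. The coverage of Orc2 went the other way, with 22.2 and 22.2 times background in lid KD and 15.1 and 20.7 in the controls.

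Orc5 (FBgn0015271, 2L:13829837-13831576, plus strand, 2 exons) shares the stretch between the start sites with Arpc1, a subunit of the actin-nucleating complex Arp2/3. The sequence printed above holds that stretch and runs on past the Orc5 start site. Its DRE lies between the start sites, and its E2F letters lie after the Orc5 start. The gene-side peak had the lowest fold enrichment of the set in every library, while its coverage was above that of Mcm7 and Mcm5. It had ranks of 30.8 and 30.6 in lid KD and of 45.4 in control replicate 1, and lay outside the 12087 strongest peaks in control replicate 2. The Arpc1 side ranked 49.3 and 47.5 in lid KD and 56.6 and 56.1 in the controls, a mean difference of -7.90 points where the controls differed by 0.55 (exact two-sided permutation test, p = 0.333). By summit pileup alone the same Arpc1-side peaks ranked 92.8 and 90.0 in lid KD and 91.0 and 93.9 in the controls. On that scale the groups overlapped and the peak was among the high ones of each library.

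dup (FBgn0000996, 2R:15376619-15380988, minus strand, 3 exons) loads the helicase and had 1 broad peak over both of its start sites and that of SRPK, a kinase of splicing factors. Its rank was 84.2 and 84.5 in lid KD and 76.8 and 81.7 in the controls, higher in both lid KD libraries by a mean of 5.16 points, close to the 4.91 points between the controls. The fold enrichment was 7.60 and 7.51 in lid KD and 5.23 and 7.45 in the controls. The lists give only the highest place of each peak, so the pileup elsewhere under it is not known. This called summit differed between the groups. It lay at 15380148 and 15380155 in lid KD, within coding sequence of dup, and at 15380852 and 15380840 in the controls, nearer the outer start site at 15380988, where a 5′ UTR is annotated for both dup and SRPK. The peak was 1419 and 1420 bp wide in lid KD and 1454 and 1440 bp in the controls, so its edges changed little. At the other 9 genes the gene-side summit lay in coding sequence in all 4 libraries.

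Set against all genes, no licensing gene reached the margin, but some falls in rank lay toward the low end. For the strongest peaks, 3.8% of genes had a lower difference than Mcm6, 5.8% than Mcm2 and 8.8% than Orc5. At Mcm6 and Orc5 these peaks lie on the side of the neighbour. At Mcm2 the strongest peak was that over RPA1 in control replicate 1 and that of Mcm2 in the other libraries. With gene-side peaks, 5.4% of genes had a lower difference than Mcm6 and 10.8% than Mcm2. In the other direction, 83.3% of genes had a lower difference than Mcm7 and 88.2% than dup. By the strongest peak of the window, 2 licensing genes (Mcm7 and dup) ranked higher in both lid KD libraries than in both controls, and 17.0% of all genes did. The 6 genes Mcm2, Mcm3, dpa, Mcm6, Orc2 and Orc5 ranked lower, and 40.9% of all genes did. By the margin of 10 points no licensing gene was called, against 1.16% of genes higher and 1.31% lower. The median difference in rank was -3.15 points over the licensing genes, with a range of -10.3 to 5.16, and -1.36 points over all genes. With gene-side peaks the count was 3 higher (Mcm5, Mcm7 and dup) and 5 lower of the 9 genes ranked in all libraries, against 18.6% and 37.5% of all genes. By the margin none was called there either, against 1.35% of genes higher and 1.09% lower. The counts by order moved with the measure that gave the rank: ranked by summit pileup, 2 licensing genes were lower, against 29.9% of all genes, and within classes of equal GC content also 2, against 26.7%.

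**Figure D3:**
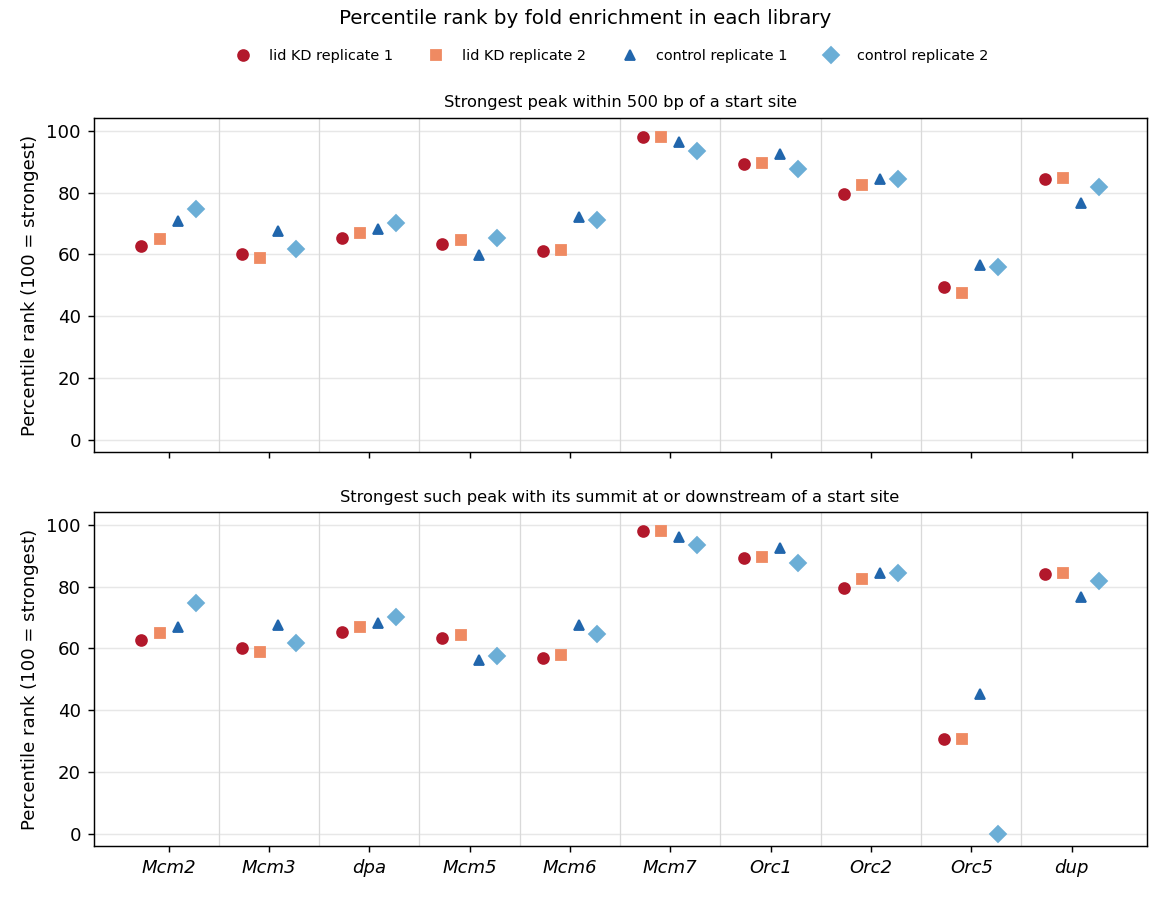
Percentile rank by fold enrichment (y axis, 100 is the strongest peak of a library) of each licensing gene in lid KD replicates 1 and 2 and, to their right, control replicates 1 and 2, for the strongest peak of the window (top) and the gene-side peak (bottom). The nearest libraries of the 2 groups lie less than 10 points apart at every gene, apart from Orc5 at the gene side, where they overlap and control replicate 2 is at 0 because its peak is outside the ranked list.

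Coverage showed how much the scale matters. With coverage over the genome background, Mcm3, Mcm7 and Orc2 were higher in both lid KD libraries than in both controls, against 38.1% of all genes, and none was lower, against 1.80%. With gene-side peaks over the genome background, Mcm3, Mcm5, Mcm7, Orc2 and Orc5 were higher, against 44.2% of all genes, and none lower, against 1.57%. For the strongest peaks the median difference was 0.28 on the log2 scale over the licensing genes and 0.26 over all genes. A shift common to all promoters and a shift in the efficiency of the immunoprecipitation cannot be told apart in such values. When each library was scaled instead to its median over the regions called in all 4, these medians became -0.13 and -0.15. Of the strongest peaks under that scaling, that of Mcm7 was the 1 higher in both lid KD libraries, by 0.14, where 5.20% of all genes were higher. The peak at Mcm6, which lies on the CG3198 side, was the 1 lower, with a difference of -0.36, where 29.3% of all genes were lower. Gene-side peaks were not scaled this way. Between the controls the median coverage difference was 0.68 over the licensing genes and 0.60 over all genes, with replicate 2 the higher.

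**Figure D4:**
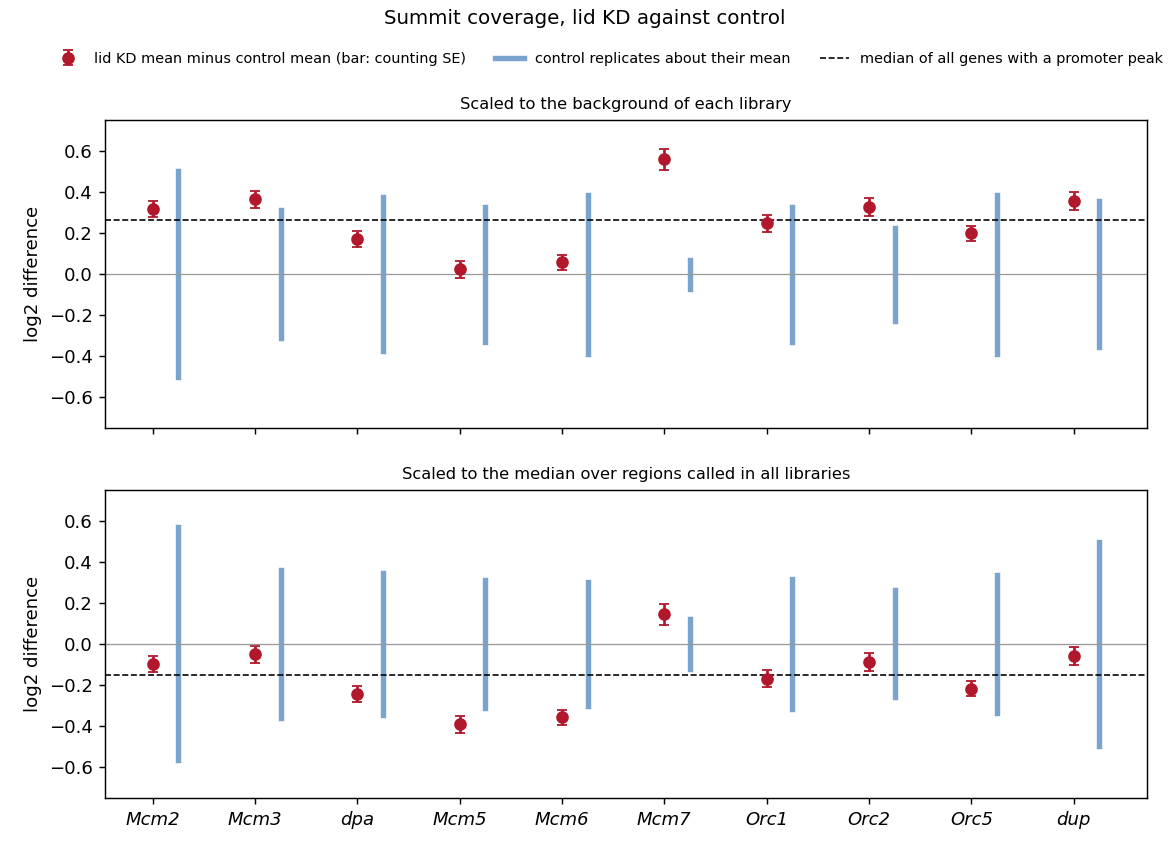
Difference in summit coverage, mean of lid KD minus mean of control on the log2 scale (y axis; red points, bars are counting standard errors), for the strongest peak of each licensing gene, with the coverage scaled to the background of the library (top) or to the median over shared regions (bottom). Blue bars in the top panel show the 2 controls about their mean. In the bottom panel they were drawn from the ratio of the log2 values, so their length is not the spread of the controls. The dashed line is the median of all genes with a promoter peak. Mcm7 is above that line in both panels and beyond the spread of the controls in the top panel. Scaled to shared regions, Mcm7 had log2 values of 0.42 and 0.36 in lid KD and 0.27 and 0.23 in the controls.

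Fold enrichment and width were counted in the same way. In fold enrichment of the strongest peak Mcm7 and dup were higher in both lid KD libraries, against 18.9% of all genes. Mcm2, Mcm3, Mcm6 and Orc5 were lower, against 10.7%. At Mcm6 and Orc5 that peak was the one of the neighbour, and at Mcm2 it was the one over RPA1 in control replicate 1. The groups overlapped in the fold of the Mcm2 gene-side peak. The median log2 difference in fold was -0.03 over the licensing genes and 0.03 over all genes. The median width of the strongest peak was 946 and 959 bp in lid KD and 839 and 949 bp in the controls, and over all genes it was 834 and 849 bp in lid KD and 871 and 767 bp in the controls. Mcm2, Mcm3 and Orc5 were wider in both lid KD libraries, against 23.0% of all genes, and dup narrower, against 12.9%. The same peaks of neighbours enter the widths at Mcm2 and Orc5, and on the gene side the widths of both overlapped. With gene-side peaks, Mcm5, Mcm7 and dup were higher in fold, against 22.9% of all genes, and Mcm3 and Mcm6 lower, against 9.98%. Gene-side peaks of Mcm3, Mcm5 and Mcm6 were wider in lid KD, against 22.0% of all genes, and that of dup narrower, against 12.3%.

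The 22 other genes of replication initiation considered were the remaining ORC subunits, Cdc6, geminin, Mcm10, the GINS and Cdc45 helicase partners, RecQ4, mus101, PCNA, the S phase kinases with their partners chif and CycE, and the regulators E2f1, Dp, Rbf and Dref. All 22 had a promoter peak in all 4 libraries, as did 48.3% of all genes. Of them 6 ranked higher in both lid KD libraries, against 17.0% of all genes, and 7 lower, against 40.9%. None was called by the margin of 10 points, against 1.16% of all genes higher and 1.31% lower, and the median difference was -0.68 points. The largest positive differences in mean rank were 4.14 points at E2f1, an activator of S phase genes, and 3.68 points at lat, which encodes Orc3. E2f1 ranked 92.2 and 91.8 in lid KD and 85.1 and 90.6 in the controls, but its strongest peak was at another of its promoters in the controls than in lid KD. lat ranked 86.5 and 88.7 in lid KD and 83.3 and 84.6 in the controls, so the groups did not overlap. The largest negative differences were -7.56 points at Dref, the factor that binds the DRE, and -7.52 points at Orc6. Dref ranked 77.4 and 76.8 in lid KD and 82.8 and 86.5 in the controls, and on its gene side the groups overlapped. Orc6 ranked 71.6 and 42.1 in lid KD and 48.9 and 79.8 in the controls, as different peaks were the strongest in different libraries. The E2F letters were present at 9 of these 22 genes, against 6.58% of all promoters and 7.78% of those with a peak, and the DRE at 8, against 9.23% and 16.9%.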

How the data were processed

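The authors aligned paired-end reads to dm6 with Bowtie2 2.3.3, removed duplicates with Picard 2.17.10 and called peaks in each library with MACS2 2.1.1 at a q threshold of 0.1. The use of an input library by the caller is not stated. The deposited lists give each peak's position, its fold enrichment (a ratio of summit pileup to local background) and the -log10 of its p and q values at the summit. From the authors' fold and -log10 p the summit pileup was solved as a whole number from a Poisson tail, for at least 99.9% of peaks in each library. The counting error of the median summit was 5.35% and 5.86% in lid KD and 5.97% and 9.25% in the controls, and covers counting only. Read totals were not used.

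Start sites were those of the Ensembl BDGP6 annotation. Among peaks that shared at least 1 base with the window of 500 bp around a start site, the one with the highest fold enrichment was taken. Each list was shortened to its 12087 strongest peaks for ranks. A difference in rank was called when both libraries of a group exceeded both of the other by at least 10 points. Groups and replicate numbers came from the sample titles. No pairing by replicate number was used in the main results. The correlation of same-numbered deviations was -0.07 over 6553 genes. With the lid KD pair within counting noise, that value cannot show whether the replicates were paired. The genes, gene lists and motifs were chosen with earlier results of these data known. All 10 genes were to be named, and of the 22 others those past the margin or else the 2 largest differences each way. The methods were tested on simulated data. Python 3.11.15, numpy 2.4.6, scipy 1.17.1 and pandas 2.3.3 were used. Alternatives were other windows, rankings, scalings and margins, a q of at most 0.01, each library left out in turn, and the replicate block.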

Additional observations from a re-analysis of the deposited data

How the results depend on the processing

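All 10 genes kept a promoter peak in all 4 libraries in every alternative except a window of 250 bp and a summit required within the window, where the count was 9. With the lists as deposited, 1 gene ranked higher in lid KD and the median difference in rank was -6.98. The number ranked lower was 3 when ranked by -log10 p, 2 when ranked by summit pileup and 2 within classes of GC content, and the median difference by summit pileup was -0.16. With a margin of 5 points 3 genes were called. For the counts in this section no share of all genes was computed, apart from those by summit pileup and by GC class. The other counts therefore cannot be read against a background. Leaving out 1 library at a time, the median difference in rank lay between -4.12 and -2.03, and 0 to 1 genes were called by the margin, the 1 arising without control replicate 2. The median log2 coverage difference of 0.28 became -0.13 when scaled to shared regions, -0.13 without control replicate 1 and 0.58 without control replicate 2, so its sign rests on control replicate 1. With the replicate block the counts stayed at 2 higher and 6 lower and the median difference in rank at -3.15, and no call changed. The cause of these shifts was not tested. With 2 libraries a group, and the lid KD pair within counting noise of each other, differences below the gap between the controls cannot be resolved.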
